A study of Mus musculus with 3 samples.

Results

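Semaphorins, ephrins, Slits and netrins are ligands that steer growing axons and vessels and that also signal between the cells of bone. They are described here with their receptors (plexins, neuropilins, Eph receptors, Robos, Unc5 proteins, neogenin and Dcc) in preosteoblasts of the mouse line MC3T3-E1, which was derived from calvaria (skull bone). The members were all genes whose symbol begins with Sema, Plxn, Efna, Efnb, Epha, Ephb or Unc5. So were the Slit, Robo and neuropilin genes, neogenin, Dcc and the netrins Ntn1, Ntn3 and Ntn4. Ntn5 was outside the rule. Of the 18193 genes represented on the array, 71 met that rule, with 160 probe sets among them. Of these symbols, 3 only share a prefix. Unc50 encodes a Golgi protein outside the netrin receptors, Unc5cl is named for its likeness to Unc5c, and Plxna4os1 is an RNA from the other strand of Plxna4. Cells were grown for 3 days at 37 °C in osteogenic medium with 0.6% dimethyl sulfoxide (DMSO, a solvent), in osteogenic medium without it, or in normal medium. Fetal bovine serum at 10% in MEM α was the base of all media. To make it osteogenic, beta-glycerophosphate at 10 mM and ascorbic acid 2-phosphate at 150 µM were added. There was 1 Affymetrix whole-genome expression array per medium, so no spread between cultures is known, no p-value is given, and each difference compares 2 arrays. The labels report more mineral with DMSO, seen by alizarin red S staining. The comparisons ask how these genes differed in osteogenic medium and with DMSO at day 3.

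As background, semaphorins bind plexins, and the secreted class 3 semaphorins mostly bind neuropilins that pair with plexins. Ephrins sit in the membrane and bind Eph receptor kinases on a neighbouring cell, and signals can run into both cells. Slits bind Robo receptors, and netrins bind Dcc, neogenin and the Unc5 receptors. In mouse bone, Sema3a from osteoblast lineage cells protects bone mass through Nrp1, osteoclast Sema4d acts on Plxnb1 of osteoblasts to restrain bone formation, and Efnb2 and Ephb4 signal between osteoclasts and osteoblasts.

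Values are log2 signals as deposited. The median over every probe set and array, 3.54, served as a floor to which lower values were raised. Where a gene had several probe sets, the brightest on average stands for it. Probe sets differ in how brightly they bind, so the level of a gene is compared between media and not with that of another gene. Of the 71 members, 47 were above the floor on all 3 arrays and 24 on none, which is 66.2% detected, beside 63.0% of all genes above the floor on at least 1 array. Detected means above the floor here, which alone does not show that a gene is expressed. All 9 plexins and both neuropilins were detected. So were 7 of 8 ephrins and 13 of 20 semaphorins, but 6 of 13 Eph receptors, 2 of 3 Slits, 1 of 4 Robos, 1 of 3 netrins and 5 of 6 netrin receptors. Slit3, Ntn4, Robo2, Robo4, Epha3, Epha7, Sema5a and Sema6d were among those under the floor. The deposited values are coarse at low signal. Among the detected members, 8 had exactly equal values on the 3 arrays (17.0%, beside 16.9% of all genes above the floor). Of those 8, 7 (Efna3, Epha10, Plxna4, Sema6a, Sema7a, Slit1 and Unc5a) had a mean under 5 and lay on values that 109 to 324 probe sets of an array held in common. Their equality is therefore no measurement that they stayed constant, and such shared values do not show that these genes were expressed. Dcc and Unc5c also lay on shared values, held in normal medium by 371 and 247 probe sets. The other equal gene was Efnb1, at 7.37 on each array, a value that 13 to 20 probe sets of an array held. It encodes a partner of Ephb receptors, and its mutation disturbs skull sutures in human patients. Its other probe sets differed by at most 0.16 and were highest with DMSO and lowest in normal medium. Equal values were not confined to low signal: of all genes with a mean of 5 or more, 11.8% had them.

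**Figure D1:**
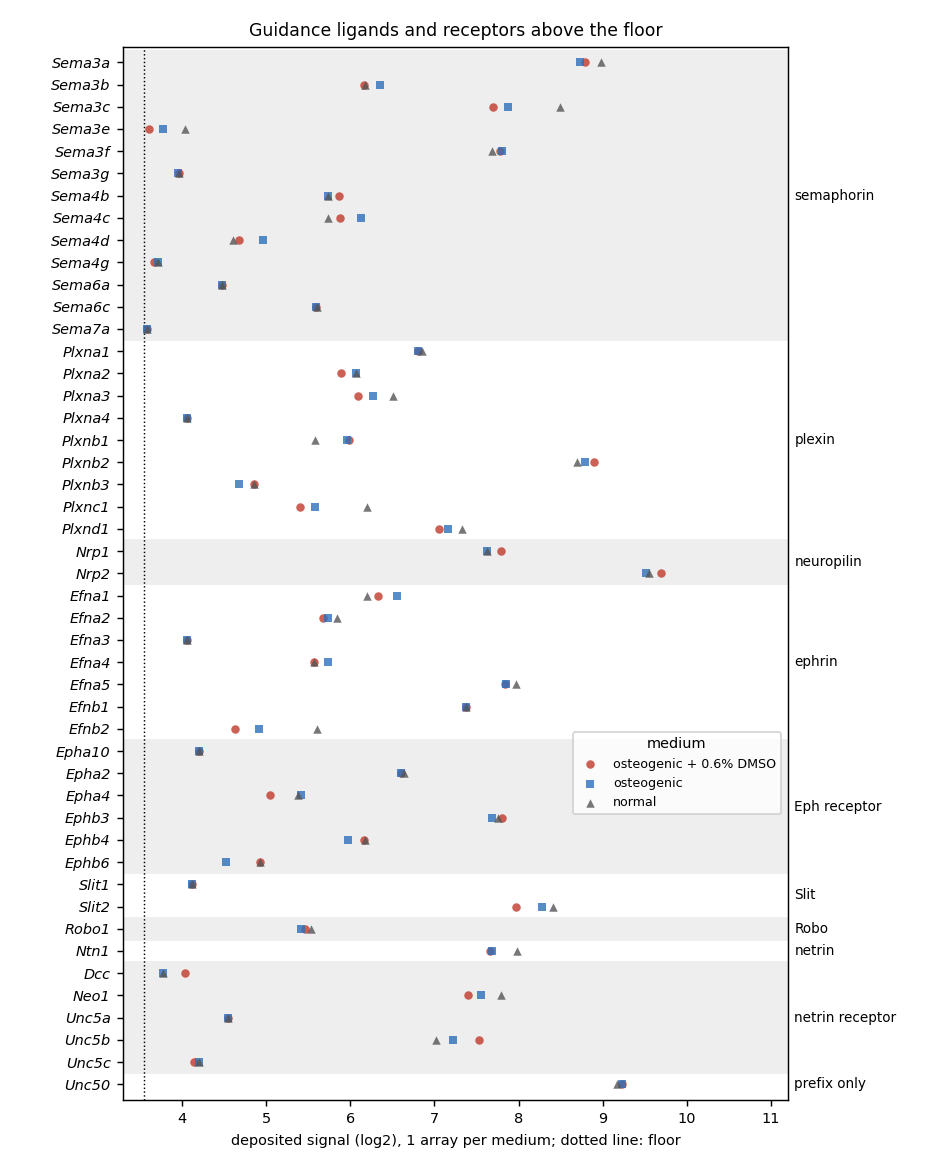
Deposited log2 signal (horizontal axis) of the 47 detected members, grouped by role, with 1 point per array for osteogenic medium with DMSO (circles), osteogenic medium (squares) and normal medium (triangles). The dotted line is the floor of 3.54. For most genes the points lie close together, and those of Efnb2, Sema3c and Plxnc1 are spread furthest.

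The labelled cell type was checked first. All 10 osteoblast markers with a probe set of their own were above the floor on every array, and their summed signal was 14.8 in osteogenic medium with DMSO, 14.7 in osteogenic medium and 14.5 in normal medium (log2). In osteogenic against normal medium 10 of the 10 were higher, with a median of 0.63, and with DMSO 8 of 10 were higher, with a median of 0.28. Of all genes measured, 36.5% and 40.5% were higher in these comparisons, with a median of 0.00 in each. Col1a1 (0.04), Col1a2 (0.03), Msx2 (0.02) and Sparc (0.11) differed little between osteogenic and normal medium. Runx2, Spp1 and Bglap were not analysed here. Of 12 endothelial markers, 1 was above the floor on all arrays (Flt1), and Pecam1, Cdh5 and Tek were below it. The counts were 4 of 12 for neuronal markers, 6 of 8 for Schwann and glial markers and 5 of 14 for macrophage and osteoclast markers. Snap25, Stmn2, Ptprc, Adgre1, Acp5 and Calcr were below the floor. The glial markers above it were Sox10, S100b, Mbp, Ngfr, Pmp22 and Egr2. Those of the macrophage and osteoclast list were Csf1r, Ctsk, Mmp9, Fcer1g and Laptm5. Ctsk was bright, at 9.29 in osteogenic medium with DMSO, 9.46 in osteogenic medium and 9.35 in normal medium. The summed signal of these 4 lists, in the same order of media, was 7.55, 7.52 and 7.82 for endothelial, 7.21, 6.99 and 6.68 for neuronal, 10.3, 10.5 and 10.6 for glial and 9.56, 9.69 and 9.63 for macrophage and osteoclast markers. Among the neuronal markers above the floor, Tubb3, a tubulin, stood at 5.91, 5.28 and 4.02, while Rbfox3 and Elavl3 were equal on all arrays and Syt1 gave -0.01 with DMSO. Of the glial markers, S100b, a calcium-binding protein, stood at 6.19, 7.59 and 7.21, a difference of -1.41 with DMSO. The part of other cells in the results below was not tested, and in such bulk RNA fewer cells of a kind and less RNA per cell cannot be told apart.

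Osteogenic medium left most of these genes within a narrow range of normal medium, and no member differed 2-fold (0.657% of all genes measured did). Efnb2, Plxnc1 and Sema3c were lower by at least 1.5-fold, which is 3 of 47 members (6.38%), beside 1.61% of all genes measured. None was higher by 1.5-fold, beside 1.75% of all genes. The median over the 47 members was 0.00, as it was over all genes, with 22 members lower, 11 higher and 14 equal. Of all 11417 genes measured 4413 were lower, 4162 higher and 2842 equal. At a smaller step of 1.25-fold, 4 members were lower (Ephb6 and the 3 above), beside 5.94% of all genes, and 4 were higher (Sema4c, Plxnb1, Efna1 and Sema4d), beside 6.02%. In either direction, 17.0% of the members passed 1.25-fold, beside 12.0% of all genes.

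**Figure D2:**
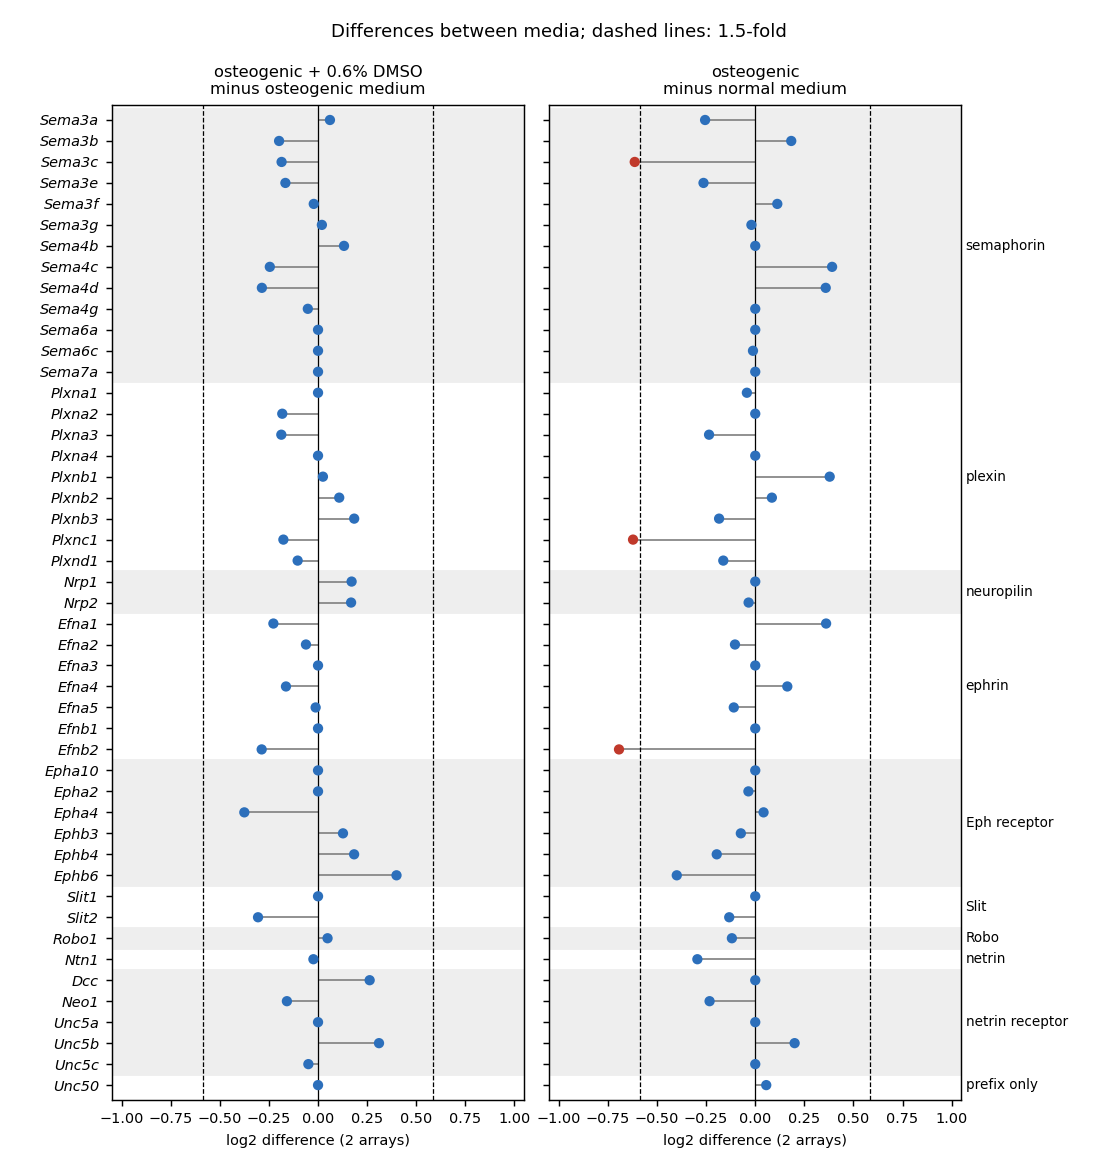
Log2 differences of the 47 detected members for osteogenic medium with DMSO minus osteogenic medium (left) and osteogenic minus normal medium (right), each from 2 arrays, with dashed lines at 1.5-fold. On the right Sema3c, Plxnc1 and Efnb2 (red) lie beyond the dashed line at -0.61, -0.62 and -0.69, and on the left no gene does.

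Efnb2 encodes ephrin-B2, a membrane ligand of EphB4. Its signal was 4.62 in osteogenic medium with DMSO, 4.91 in osteogenic medium and 5.60 in normal medium. It was thus lowest with DMSO and highest in normal medium, where 54 probe sets of the array held that same value. The difference was -0.69 for osteogenic minus normal medium (1.62-fold lower), -0.29 for DMSO within osteogenic medium and -0.98 for osteogenic medium with DMSO minus normal medium (1.97-fold lower). A second probe set of Efnb2 was above the floor in normal medium only, at 4.32, with 3.28 in osteogenic medium with DMSO and 3.46 in osteogenic medium. Against the floor it was at least 1.5-fold lower in both osteogenic media (bound of -0.78). The other 2 probe sets of Efnb2 were below the floor on all arrays.

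Sema3c is a secreted semaphorin that binds neuropilins and guides vessels and neural crest cells. Its signal was 7.69 in osteogenic medium with DMSO, 7.88 in osteogenic medium and 8.49 in normal medium. It was highest in normal medium, and DMSO gave -0.19 within osteogenic medium. Osteogenic minus normal medium gave -0.61 (1.53-fold lower), and osteogenic medium with DMSO minus normal medium gave -0.80 (1.74-fold lower). Its second probe set, at 5.45, 5.31 and 5.94 in the same order, gave -0.63 for osteogenic minus normal medium but 0.14 for DMSO. The lower signal in osteogenic medium was thus seen in both probe sets of Sema3c, while for DMSO their signs were opposite.

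Plxnc1 is the plexin that binds Sema7a. Its signal was 5.40 in osteogenic medium with DMSO, 5.57 in osteogenic medium and 6.20 in normal medium, a difference of -0.62 for osteogenic minus normal medium (1.54-fold lower) and -0.80 for osteogenic medium with DMSO minus normal medium. Its second probe set above the floor stood at 5.18, 4.87 and 5.21, which gave -0.34 for osteogenic minus normal medium and -0.04 for osteogenic medium with DMSO minus normal medium. The 2 probe sets had the same sign in osteogenic medium but only the brighter was still low with DMSO. On the array of osteogenic medium, 73 probe sets held the value of the brighter one. The other 4 probe sets of Plxnc1 were below the floor. Its ligand Sema7a lay just above the floor at 3.58 on every array.

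**Figure D3:**
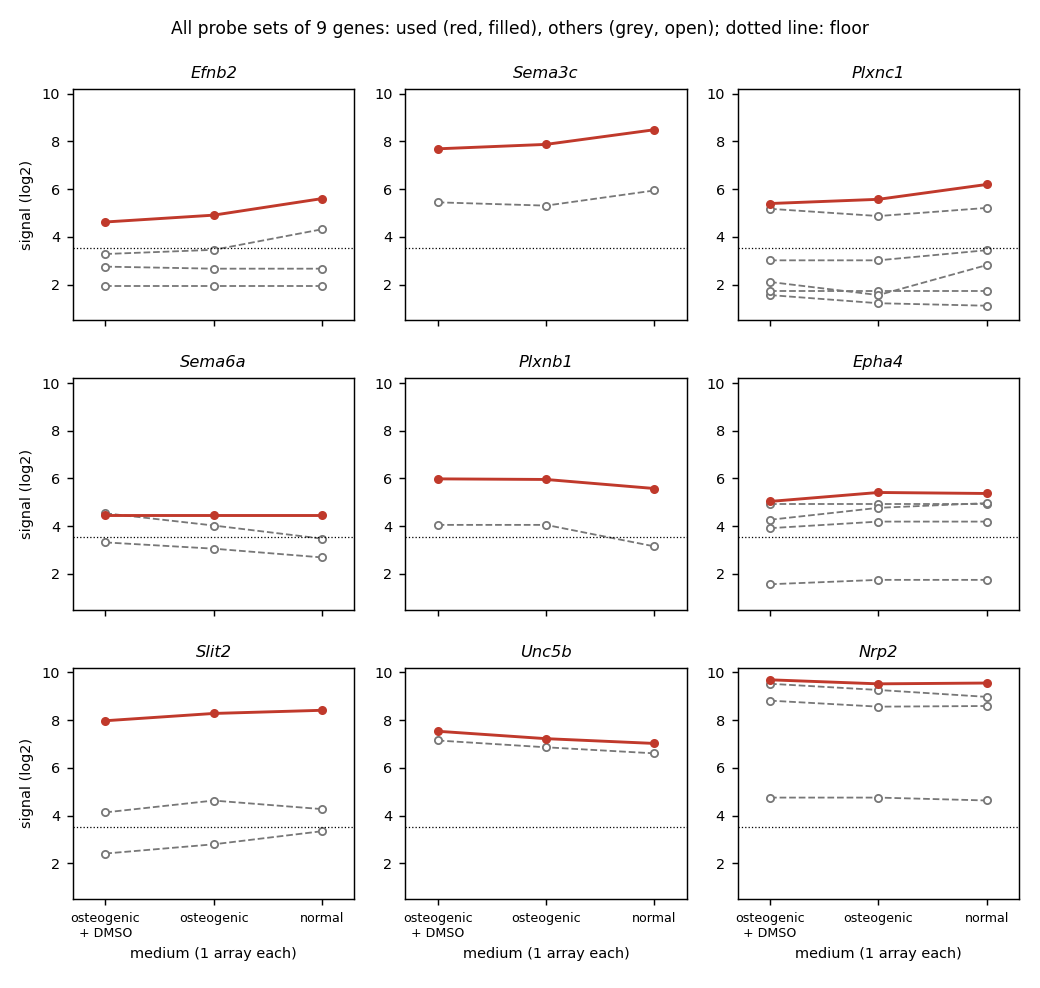
Log2 signal of every probe set of 9 members on the arrays of osteogenic medium with DMSO, osteogenic medium and normal medium, with the probe set that represents the gene in filled red, the others in open grey and the floor of 3.54 as a dotted line. Both probe sets of Unc5b run in parallel, while those of Sema6a and Plxnc1 do not.

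The promoters of these 3 genes are shown because these are the members past 1.5-fold in osteogenic medium. Each is the stretch from 250 bases before to 50 after the gene's start in RefSeq on GRCm38.p6, read 5′ to 3′ on the gene's strand. Efnb2 lies on the minus strand (chr8:8661193-8661492), Plxnc1 on the minus strand (chr10:94944796-94945095) and Sema3c on the plus strand (chr5:17574566-17574865). Capitals mark GGGCGG, the GC box bound by Sp1-like factors, on either strand.
Efnb2: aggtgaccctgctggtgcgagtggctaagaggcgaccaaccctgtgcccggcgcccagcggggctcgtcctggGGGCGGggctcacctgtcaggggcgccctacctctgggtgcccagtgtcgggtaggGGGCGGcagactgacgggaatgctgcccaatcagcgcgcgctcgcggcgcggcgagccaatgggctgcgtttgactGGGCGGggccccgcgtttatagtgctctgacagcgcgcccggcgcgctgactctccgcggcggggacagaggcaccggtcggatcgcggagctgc
Plxnc1: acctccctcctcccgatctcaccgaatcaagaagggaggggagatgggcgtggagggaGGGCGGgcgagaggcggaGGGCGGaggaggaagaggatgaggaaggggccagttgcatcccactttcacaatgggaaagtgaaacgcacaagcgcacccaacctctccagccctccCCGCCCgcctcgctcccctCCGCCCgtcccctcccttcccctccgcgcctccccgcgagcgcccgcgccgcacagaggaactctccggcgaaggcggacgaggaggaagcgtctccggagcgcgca
Sema3c: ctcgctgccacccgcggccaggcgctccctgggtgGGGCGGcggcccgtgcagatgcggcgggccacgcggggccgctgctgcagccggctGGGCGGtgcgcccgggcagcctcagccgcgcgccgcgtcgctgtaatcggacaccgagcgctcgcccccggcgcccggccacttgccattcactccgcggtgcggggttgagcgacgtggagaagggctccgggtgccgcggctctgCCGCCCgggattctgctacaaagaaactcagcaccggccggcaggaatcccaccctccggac
The GC box was found 3 times in Efnb2, 4 times in Plxnc1 and 3 times in Sema3c. It is common: 80.9% of the 47 promoters matched to 39 detected members held it, beside 62.8% of the promoters of all genes above the floor and 35.7% of all 32851 promoters of this length. These promoters are rich in G and C, with 72.3% in Efnb2, 69.0% in Plxnc1 and 75.7% in Sema3c, against a median of 65.3% over the promoters of detected members and 61.0% over those of genes above the floor. The TATA box, TATAAA on either strand, was found in Efnb2 alone of the 3, at -30 from the start. That match lies on the strand opposite to the gene and reads TTTATA in the sequence as printed. It occurs in 4.26% of the promoters of detected members, 7.16% of those of genes above the floor and 13.6% of all. TGTGGT (a RUNX site), TGANTCA (an AP-1 site), CACGTG (an E-box) and TGACGTCA (a cyclic AMP response element), searched on both strands, were not in these 3 windows. RUNX letters were in 16.8% of all promoters, AP-1 in 7.81%, the E-box in 7.15% and the cyclic AMP element in 1.79%. None of these motifs contains another, and a match is not a bound site.

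The other semaphorins differed less. Sema3a stood at 8.79 in osteogenic medium with DMSO, 8.73 in osteogenic medium and 8.99 in normal medium, a difference of -0.26 for osteogenic minus normal medium, and its other probe sets gave 0.00 and -0.18. Sema3e, which binds Plxnd1 without a neuropilin, lay close to the floor at 3.60, 3.77 and 4.03. Its receptor Plxnd1 also had its lowest signal with DMSO and its highest in normal medium, at 7.06, 7.16 and 7.32. Of the class 4 semaphorins, which are held in the membrane, Sema4c and Sema4d were higher in osteogenic than in normal medium. Sema4c stood at 5.88, 6.13 and 5.74 and Sema4d at 4.68, 4.97 and 4.61, so that both peaked in osteogenic medium without DMSO, by 0.39 and 0.36 over normal medium, while DMSO gave -0.25 and -0.29. A second probe set of Sema4d read 3.77 on all arrays, and Sema4b differed by 0.00 and 0.13. Sema3b (6.16, 6.36 and 6.17) also peaked in osteogenic medium. Sema3f, Sema3g, Sema4g and Sema6c differed by at most 0.11 in the main comparisons.

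Sema6a, a membrane semaphorin that binds A-class plexins, depends on the probe set read. The probe set with the highest mean gave 4.48 on all 3 arrays, a value shared by 182 to 184 probe sets of an array. Another gave 4.54 in osteogenic medium with DMSO, 4.03 in osteogenic medium and 3.48 in normal medium, which is under the floor. On it the signal with DMSO was higher by 0.51 than in osteogenic medium and at least 2-fold higher than in normal medium. The last was under the floor on every array and gives no difference. The 2 probe sets above the floor on any array thus gave different readings.

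Among the plexins, Plxnb1, the receptor of Sema4d, stood at 5.98 in osteogenic medium with DMSO, 5.96 in osteogenic medium and 5.58 in normal medium. It was higher by 0.38 in osteogenic than in normal medium, and its second probe set, with 4.06, 4.06 and 3.15, by a bound of 0.51. Sema4d and Plxnb1 were thus both 1.25-fold or more higher in osteogenic medium, and with DMSO Sema4d was near its level in normal medium while Plxnb1 was not. Plxnb2 was at 8.89, 8.78 and 8.70, differences of 0.08 in osteogenic medium and 0.11 with DMSO. Plxna3 stood at 6.09, 6.27 and 6.51, lowest with DMSO, and its second probe set at 4.86, 4.86 and 5.30. Plxna1 gave -0.04 in osteogenic medium, Plxna2 gave -0.18 with DMSO, and Plxnb3 gave -0.18 in osteogenic medium and 0.18 with DMSO.

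The neuropilins are the binding partners of class 3 semaphorins. Nrp1 stood at 7.79 in osteogenic medium with DMSO, 7.62 in osteogenic medium and 7.62 in normal medium. Its other probe sets above the floor were higher with DMSO by 0.47 and 0.27. Nrp2 stood at 9.69, 9.52 and 9.55, and 2 of its other probe sets were higher with DMSO by 0.25 and 0.26. The latter, at 9.52, 9.26 and 8.97, gave 0.29 for osteogenic minus normal medium, where the brightest gave -0.03. Both neuropilins were therefore highest on the array with DMSO, by less than 1.5-fold, over most of their probe sets. The other probe set of Nrp2 did not differ (4.75 in both osteogenic media).

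Of the ephrins, Efna1, a ligand of Epha2, stood at 6.33 in osteogenic medium with DMSO, 6.56 in osteogenic medium and 6.20 in normal medium, higher by 0.36 in osteogenic than in normal medium. Its second probe set gave 0.19. Epha2 itself gave -0.03. Efna4 (5.57, 5.74 and 5.57) also peaked in osteogenic medium, by 0.16. Efna5, a membrane-anchored ligand of EphA receptors, stood at 7.84, 7.86 and 7.96. The 2 probe sets of Efna2 had opposite signs in osteogenic medium, at -0.10 and 0.36.

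Among the 47 members, the highest and the lowest difference with DMSO were those of Eph receptors. Ephb6, a receptor whose kinase is inactive, stood at 4.92 in osteogenic medium with DMSO, 4.52 in osteogenic medium and 4.92 in normal medium. Its values with DMSO and in normal medium were equal and were held by 131 and 107 probe sets of those arrays, so its differences of -0.40 and 0.40 both rest on the single array of osteogenic medium. Ephb4, the receptor of Efnb2, had the same shape at a smaller size, at 6.16, 5.97 and 6.17, and Ephb3 stood at 7.80, 7.68 and 7.75. Epha4, which binds ephrins of both classes, stood at 5.04, 5.41 and 5.37 and gave -0.38 with DMSO (1.30-fold lower). Its 3 other probe sets above the floor differed with DMSO by -0.50, -0.28 and 0.00. Epha4 was thus lower with DMSO on 3 of its 4 probe sets above the floor.

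Slit2 is a secreted ligand of Robo receptors. It stood at 7.97 in osteogenic medium with DMSO, 8.28 in osteogenic medium and 8.41 in normal medium, a difference of -0.31 with DMSO. Its second probe set above the floor gave -0.50 with DMSO, but read 0.36 for osteogenic minus normal medium where the first read -0.13. Its receptor Robo1 stood at 5.46, 5.41 and 5.53, a difference of -0.12 for osteogenic minus normal medium.

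Netrin 1, encoded by Ntn1, stood at 7.66 in osteogenic medium with DMSO, 7.69 in osteogenic medium and 7.98 in normal medium, a difference of -0.29 for osteogenic minus normal medium. Its other probe set was at 3.77 on every array. Unc5b, a netrin receptor that also serves in vessels, had the highest difference among the 47 members for osteogenic medium with DMSO minus normal medium, by the brightest probe set. It stood at 7.53, 7.22 and 7.02, highest with DMSO, with differences of 0.20 for osteogenic minus normal medium, 0.31 for DMSO and 0.51 (1.42-fold) for osteogenic medium with DMSO minus normal medium. Its second probe set gave 0.25, 0.29 and 0.54. Neo1, encoding neogenin, which also binds the BMP co-receptors of the repulsive guidance family, ran the other way at 7.40, 7.56 and 7.79, and its second probe set gave -0.20 and -0.10 for the main comparisons where the first gave -0.23 and -0.16. Another was at 3.97 on every array. Dcc, a receptor known from neurons, lay near the floor at 4.03, 3.77 and 3.77. Unc5c gave -0.05 with DMSO, and Unc50 gave 0.06 in osteogenic medium.

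With DMSO within osteogenic medium no member differed by 1.5-fold in either direction, beside 2.12% of all genes measured that were lower by 1.5-fold and 0.35% that were higher. No member differed 2-fold, beside 0.604% of all genes. At 1.25-fold, Epha4 was lower, beside 5.42% of all genes, and Ephb6 was higher, beside 2.24%. The 2 members are 4.26% of the 47, and 7.66% of all genes passed 1.25-fold in either direction. The members had a median of 0.00, as all genes did. This comparison shares the array of osteogenic medium with the one before, so an error on that array enters both with opposite sign. Of the members, 21 were lower, 14 higher and 12 equal with DMSO, whereas of all 11423 genes measured 3462 were lower and 4627 higher. A difference of any size counts here, and most were small: the median size was 0.11 over the members and 0.06 over all genes.

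**Figure D4:**
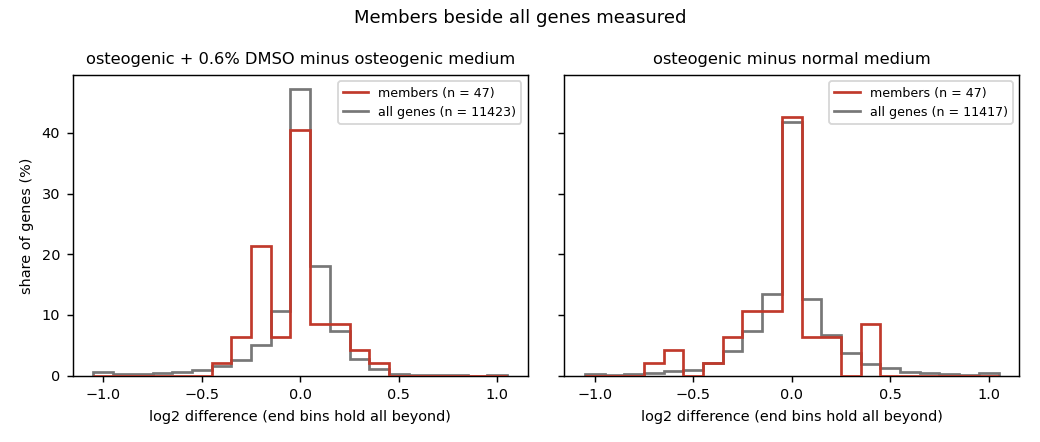
Share of genes (percent, vertical axis) by log2 difference in steps of 0.1 for the 47 members (red) and all genes measured (grey), for osteogenic medium with DMSO minus osteogenic medium (left, 11423 genes) and osteogenic minus normal medium (right, 11417 genes); the end steps hold everything beyond. The members stay between -0.38 and 0.40 on the left and between -0.69 and 0.39 on the right, inside the tails of all genes.

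Osteogenic medium with DMSO set against normal medium is the sum of both steps and shares its arrays with them. Efnb2 (-0.98), Plxnc1 (-0.80) and Sema3c (-0.80) were again lower by 1.5-fold, 3 of 47 beside 4.19% of all genes, and none was higher, beside 2.59%. None reached 2-fold, beside 1.94% of all genes, though Efnb2 lay close to it. At 1.25-fold, 8 members were lower, beside 9.92% of all genes, and 2 were higher, beside 8.09%. Besides the 3 named, the lower ones were Slit2 (-0.44), Sema3e (-0.43), Plxna3 (-0.42), Neo1 (-0.39) and Epha4 (-0.33). The higher ones were Unc5b (0.51) and Plxnb1 (0.40). Another probe set of Epha4 gave -0.70.

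The single repeat measurement on these arrays is the agreement between probe sets of a gene. Over the 5183 genes with at least 2 probe sets above the floor on all arrays, the disagreement of the 2 brightest gave an SD per probe set of 0.13 for osteogenic minus normal medium, 0.11 for DMSO and 0.16 for osteogenic medium with DMSO minus normal medium. Over the 21 members among them it was 0.16, 0.13 and 0.15. Where both probe sets of a member differed from 0, they had the same sign in 7 of 10, 8 of 10 and 10 of 14 members. Over all genes it was 2386 of 3066, 2220 of 2800 and 2520 of 3144. These SDs cover probe noise and isoforms and leave out the spread between cultures. Of the 89 other probe sets of the members, 35 were measured in osteogenic against normal medium, of which 2 were lower by 1.5-fold (in Efnb2 and Sema3c) and 0 higher. With the mean of all probe sets of a gene in place of the brightest, Sema3c alone of the 3 stayed past 1.5-fold in osteogenic medium. Plxnb1 gave 0.64. Such a mean takes in probe sets below the floor. For Efnb2 it was above the floor in normal medium only, which gave a bound of -0.09. For Plxnc1 it was below the floor in both media and gave no difference.

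Genes that act with these ligands and receptors were taken from pathway lists. Of 28 measured genes of semaphorin co-receptors and plexin signalling, 1 was higher by 1.5-fold in osteogenic than in normal medium and 2 were lower, beside 1.75% and 1.61% of all genes, with a median of -0.0041. Rras2, a small GTPase of the R-Ras family on which plexins act, was the one higher, at 8.81 in osteogenic medium with DMSO, 7.98 in osteogenic medium and 7.26 in normal medium. It was highest with DMSO, by 0.83 over osteogenic medium, and its second probe set gave 0.31 and 0.73 for the main comparisons. The lower genes were Plxdc2 (-0.78), a membrane protein with a plexin-like domain that is no plexin, and Itga1 (-0.59), an integrin subunit of a Sema7a receptor. With DMSO, 2 of 27 were higher by 1.5-fold and 0 lower, beside 0.35% and 2.12% of all genes. The same shares of all genes stand beside the counts of the other lists. Besides Rras2 this was Farp2, an exchange factor in Sema3a signalling, at 8.41, 7.77 and 7.39, with a second probe set that gave 0.47 for DMSO. In osteogenic medium with DMSO against normal medium, 3 of 28 were higher by 1.5-fold and 1 lower, beside 2.59% and 4.19% of all genes. The higher ones were Rras2 (1.55), Farp2 (1.02) and Mical3 (0.59), and the lower one was Plxdc2 (-1.17). Mical3 is a flavoprotein oxidase of the family that acts on actin downstream of plexins.

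Of 22 measured genes of Eph and ephrin signalling, 1 was higher by 1.5-fold in osteogenic medium (Rhbdl2, a membrane protease, by 0.75) and 0 lower. With DMSO 0 passed 1.5-fold in either direction. Rhbdl2 was dim, at 4.27 in osteogenic medium with DMSO, 4.77 in osteogenic medium and 4.01 in normal medium. DMSO gave -0.50, so its rise rests on the single array of osteogenic medium, and its other probe sets were below the floor. Of 24 genes of Slit-Robo signalling, 0 passed 1.5-fold in either main comparison. In osteogenic medium with DMSO against normal medium, 1 of the 24 was higher by 1.5-fold and 0 lower, beside 2.59% and 4.19% of all genes. This was Gpc1, a heparan sulfate proteoglycan that binds Slits, higher by 0.75. It stood at 10.44 in osteogenic medium with DMSO, 10.10 in osteogenic medium and 9.68 in normal medium. Of 19 genes of netrin and repulsive guidance signalling, 1 was lower by 1.5-fold in osteogenic medium. This was Flrt2, a membrane ligand of Unc5 receptors, at 6.37, 6.49 and 7.20, and its other probe sets gave -0.65 and -0.99. With DMSO 1 of 19 was lower, Ablim1, an actin-binding protein, at 6.38, 7.05 and 7.63, with a second probe set at -0.42 for DMSO. In osteogenic medium with DMSO against normal medium, 2 of the 19 were lower by 1.5-fold and 0 higher, beside 4.19% and 2.59% of all genes. They were Ablim1 (-1.25, with a second probe set at -1.03) and Flrt2 (-0.83). These lists had medians of -0.0049, -0.09 and -0.09 in osteogenic against normal medium and of 0.00 each with DMSO, beside 0.00 over all genes in both comparisons.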

How the data were processed

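RNA of 3 cultures, 1 per medium, was measured on Affymetrix arrays. The authors deposited 1 log2 value per probe set and array; the scale was read from the range of 0.652 to 13.4, and how they were summarised or normalized is not given in the sources. Array medians of 3.54, 3.58 and 3.54 (osteogenic with DMSO, osteogenic, normal) show that the arrays share a scale, so a change in total RNA would not be seen. Of 45037 probe sets other than controls, 34945 had 1 gene symbol in the 2016 platform annotation, 932 had several and 9160 had none here; those with 1 symbol were used.

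Each of 18193 genes was represented by its brightest probe set, values under 3.54 were raised to it, and log2 differences between arrays were taken. A gene was measured where at least 1 of the 2 arrays was above the floor. Thresholds of 2-fold and 1.5-fold were used, and 1.25-fold was added after the values were seen. With 1 array per medium there is no test, and precision is limited by how few arrays there are. The members and lists were chosen with earlier results of these data known. Members past 1.5-fold, bright members of each role and ligand-receptor pairs are given in full. From each list, up to 4 genes past 1.5-fold are named. Promoters came from RefSeq, which matched 60 of the 71 members, and the motifs were chosen after the values were seen. Alternatives were other floors, probe set rules and normalizations. The procedure was run on simulated data as a check of the code only. The simulated noise was smaller than the probe set disagreement given above, so the run does not show how often a difference here is false. Python 3.11.15, numpy 2.4.6, pandas 2.3.3, matplotlib 3.10.9, R 4.3.3 and limma 3.58.1 were used.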

Additional observations from a re-analysis of the deposited data

How the results depend on the processing

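The counts past 2-fold stayed at 0, the counts past 1.5-fold in either direction stayed within 1.5 times and the medians stayed close to 0 under the alternatives run, but the direction of the 1.5-fold count did not: with the mean of all probe sets of a gene, 1 member was higher and 1 lower in each osteogenic medium against normal medium, in place of 0 higher and 3 lower. The alternatives were floors at the 40th and 60th percentile or none, the mean of all probe sets of a gene, no probe sets whose name ends in _x_at (those ending in _s_at were kept), quantile, cyclic loess and median centring, members with equal values left out of the medians, and, chosen after seeing the data, the 3 symbols that only share a prefix left out. Of the single-gene results, 1122 kept their side of 1.5-fold, 4 no longer passed it, 2 newly passed it and 0 reversed. Many of the 1122 could not change. Each detected member is above the floor on all 3 arrays, so a lower floor or none left its difference as it was. All 6 results that changed sides came with the mean of all probe sets, which includes those below the floor. With that mean, Sema3c alone of the 3 genes stayed past 1.5-fold. There Plxnb1 gave 0.65 for osteogenic medium with DMSO and 0.64 for osteogenic medium, each against normal medium. Efnb2 gave a bound of -0.09 in both comparisons, as its mean was above the floor in normal medium only. The mean of Plxnc1 was below the floor on all arrays and gave no difference. The floor is not the whole reason for these 4 results. Taken without it, the means of both genes also differ by less than 1.5-fold. No paired analysis was possible because each medium has 1 array, and for the same reason no replicate could be left out. Signals near the floor limit what can be seen of 24 members.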
